A study of Sus scrofa with 8 samples.

Results

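This account covers 7 genes of red blood cells in pig left ventricle. They are the globin genes HBB and HBM, the globin chaperone gene AHSP, the heme synthesis gene ALAS2, the membrane gene SLC4A1 and the transcription factor genes GATA1 and KLF1. They were named by symbol, all 7 were found among the 14718 genes of the table, and 5 (HBB, HBM, AHSP, ALAS2 and SLC4A1) passed the filter on low values. The genes were selected on values measured in these same libraries, with their normalized counts known, so their levels, group differences and correlations are given as a description. GATA1 and KLF1 are given in reads only.

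Red blood cell precursors make hemoglobin from α-type and β-type globin chains and heme. They lose their nucleus before entering the blood, and the young circulating cells, the reticulocytes, still carry globin mRNA for a short time. RNA taken from a whole organ includes that of the blood cells left in it. In bulk RNA, fewer cells of a type and less RNA per cell cannot be told apart.

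Polyadenylated RNA of 8 pigs was sequenced, 1 left ventricle library per pig. The 4 wild type (WT) pigs carry the genotype label wt (pigs 1, 2, 4 and 5, here WT replicates 1 to 4). Of the 4 mutant pigs, 3 are labelled KCNH2 mutation (pigs 6, 7 and 8, mutant replicates 1 to 3) and 1 is labelled KCNH3 mutation (pig 9, mutant replicate 4), although the series names KCNH2 alone, a potassium channel gene whose loss of function causes long QT syndrome. The labels give no allele, treatment, age, sex, litter or perfusion of the tissue, and do not say whether the edited pigs derive from 1 clone.

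The libraries held 15.9 to 22.4 M reads (M is the SI prefix mega). The 13 mitochondrially encoded genes took 31.7% to 87.9% of the reads of WT libraries and 15.9% to 27.5% of those of mutant libraries. Reads of nuclear genes numbered 2.53 M in WT replicate 3, 7.53 M in WT replicate 4 and 11.5 to 16.2 M in the others. KCNH2 had 148 to 1909 normalized counts in WT and 798 to 1839 in mutant libraries, which does not check the labels because a gene's count does not show an edit. The most similar libraries, mutant replicates 3 and 4, had a chi-square per gene of 12.6, above sampling noise, and counted as separate samples. Markers of ventricular myocytes, 10 of 10 listed, were present in every library, and the cardiac actin gene ACTC1 was at 1752 normalized counts in WT replicate 4 against 32209 to 234540 elsewhere. WT replicate 4 stands apart in most results below, and group differences and list medians are given with and without it.

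Globin transcripts split the libraries into 3 levels. HBB, the adult β-globin chain, was high in WT replicates 1 to 3, lower in all mutant libraries, and lowest in WT replicate 4. Levels are normalized counts, meaning reads divided by a size factor of the library, and each set of 4 values follows the order of the replicates. The WT libraries had 15405, 27515, 27594 and 38.8 for HBB, and the mutant libraries had 2542, 2245, 2457 and 2086. The mutant libraries lay within a narrow band between WT replicate 4 and the other WT libraries, so the groups overlapped through WT replicate 4 alone. The mean was 17638 ± 13056 for the WT pigs and 2333 ± 206 for the mutant pigs (SD, n = 4). WT replicates 1 to 3 averaged 23505 ± 7015 (SD, n = 3), which was 10.1-fold the mutant mean, and the mutant mean was 60.1-fold the value of WT replicate 4. WT replicates 2 and 3 were nearly equal, and the mutant libraries differed from each other by a standard deviation of 8.85% of their mean.

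HBM, a globin of the α-type, followed the same order. The WT pigs had 456, 489, 557 and 0 normalized counts and the mutant pigs 39.7, 50.9, 47.2 and 33.8. WT replicates 1 to 3 were close to each other and 11.7-fold above the mutant mean. WT replicate 4 had no HBM read. The upper limit for a gene with no read is 3 reads, here 3.64 normalized counts, so the mutant mean of 42.9 ± 7.65 (SD, n = 4) was at least 11.8-fold higher than that library. HBM and the embryonic α-type gene HBZ are immediate neighbours in the RefSeq annotation of the pig (assembly Sscrofa11.1), and similar globin copies may share reads.

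AHSP, which binds free α-globin and keeps it from precipitating, was less even among WT libraries. Normalized counts of AHSP in the WT pigs were 354, 398, 77.5 and 0, and those in the mutant pigs were 36.7, 19.0, 34.3 and 17.9. WT replicate 3, which matched WT replicate 2 in HBB, was nearer to the mutant libraries in AHSP, where its value rests on 16 reads. The WT pigs averaged 208 ± 198 and the mutant pigs 27.0 ± 9.90 (SD, n = 4).

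ALAS2, the erythroid enzyme of the first step of heme synthesis, reached 1484, 3402, 862 and 10.9 normalized counts in the WT pigs. The mutant pigs had 371, 349, 455 and 379, a mean of 389 ± 45.8 (SD, n = 4). WT replicates 1 to 3 were all above the mutant libraries, by 4.93-fold in the mean, and WT replicate 4 was again below them, with 9 reads. SLC4A1, the anion exchanger known as band 3 of the red cell membrane, was at 250, 44.9, 29.1 and 0 in the WT pigs and at 7.33, 30.4, 20.02 and 11.9 in the mutant pigs. It was the 1 gene of the 5 in which a mutant library, replicate 2, lay above 1 of WT replicates 1 to 3.

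**Figure D1:**
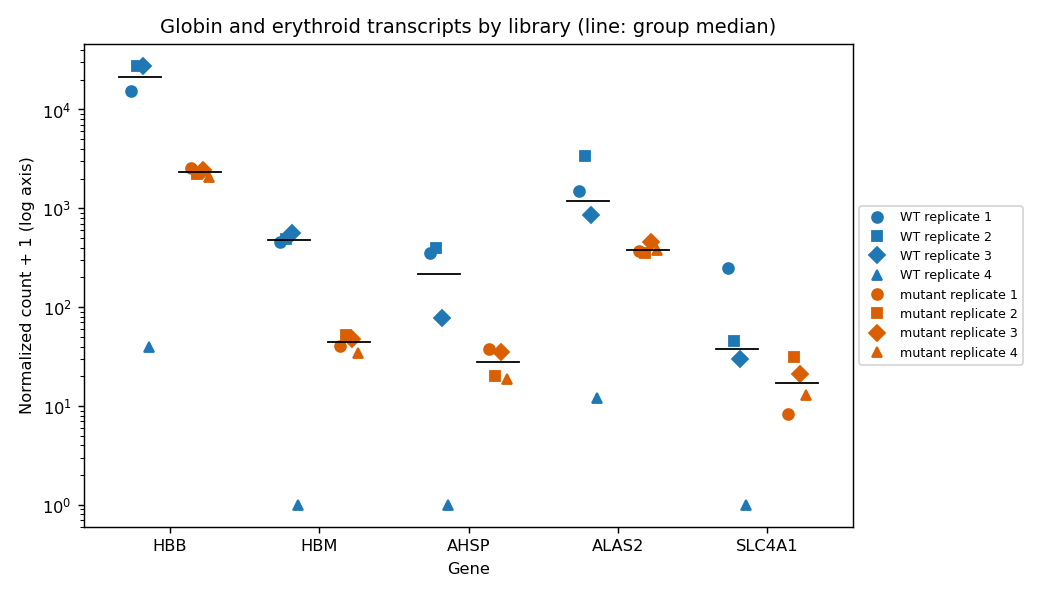
Normalized count plus 1 (log axis) of 5 globin and erythroid genes in each library, with WT in blue, mutant in orange, 1 symbol per replicate and a line at each group's median. WT replicate 4 is the lowest library for all 5 genes, and for HBB the mutant libraries sit between 2086 and 2542, below WT replicates 1 to 3.

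GATA1, the master transcription factor of red cell and megakaryocyte precursors, was barely detected. The WT pigs gave 12, 13, 0 and 3 reads and the mutant pigs 3, 2, 0 and 1. KLF1, which activates the adult β-globin gene, gave 4, 0, 11 and 0 reads in the WT pigs and 0, 1, 0 and 0 in the mutant pigs. Both genes fell below the filter, and most of these values are at or near that limit of 3 reads. The 11 KLF1 reads came from WT replicate 3, the library with the fewest nuclear reads, which had no GATA1 read. These counts are too few to give either gene a difference between the groups or a correlation with the globins.

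The 3 levels of HBB were also seen when mitochondrial reads were set aside, although WT replicates 2 and 3 changed places. Per 1 M reads of nuclear genes, HBB had 1498 (Wilson 95% interval 1477 to 1519) in WT replicate 1, 2777 (2747 to 2808) in WT replicate 2 and 2247 (2190 to 2306) in WT replicate 3. WT replicate 4 had 4.25 (3.01 to 6.002), from 32 reads. Mutant replicates 1 to 4 had 257, 233, 251 and 216, with intervals that together span 208 to 264. Such intervals hold counting error alone, because PCR copies of a molecule are read without identifiers. The place of WT replicate 3, with 87.9% mitochondrial reads, depended on this choice. Per 1 M reads of all genes, HBB had 996, 1897, 273 and 1.48 in the WT pigs and 182 to 209 in the mutant pigs, so WT replicate 3 was still above the mutant libraries but near to them. On that scale WT replicate 3 lay below every mutant library for ALAS2 (8.53 against 27.2 to 38.7), AHSP (0.767 against 1.56 to 2.92) and SLC4A1 (0.288 against 0.536 to 2.52). HBM kept WT replicate 3 above them (5.51 against 2.91 to 4.22).

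On the log2(normalized count + 1) scale used for testing, the difference of HBB, mutant minus WT, was -0.998 ± 1.82 (SE). It was -1.29 ± 1.81 (SE) for HBM, -1.12 ± 1.68 (SE) for AHSP, -0.30 ± 1.45 (SE) for ALAS2 and -0.57 ± 1.49 (SE) for SLC4A1. Each standard error exceeded its difference. For low genes the added value mattered. With 0.5 or 5 added in place of 1, the difference was -1.05 or -1.75 for HBM and -0.89 or -1.51 for AHSP. For SLC4A1 it was -0.36 or -0.89. In limma 0 of the 5 genes passed an adjusted p of 0.05, and 0% of all 11660 genes tested did. At an unadjusted p under 0.05 limma had 1616 genes (13.9%), none of them among the 5, and edgeR on the recovered reads called 0% of 11878 genes, with 1753 (14.8%) at an unadjusted p under 0.05. The authors' deposited table, which compares group means of counts, gives a log2 fold change of -2.92 for HBB (adjusted p = 0.0567) and of -3.13 for HBM (adjusted p = 0.0499). HBM is the 1 member of 7 that the authors' deposited table calls lower, where 4.54% of all its genes with an adjusted p are called, 3.23% as lower. DESeq2 run on the recovered reads likewise called HBM alone of the 7, with 4.56% of all genes called and 3.24% called lower.

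The size of these differences turned on WT replicate 4. Without it the log2 difference was -3.29 ± 0.26 (SE; limma adjusted p = 0.00599) for HBB and -3.53 ± 0.30 (SE; limma adjusted p = 0.00746) for HBM. It was -3.07 ± 0.67 (SE) for AHSP, -2.07 ± 0.42 (SE) for ALAS2 and -2.11 ± 0.90 (SE) for SLC4A1, which did not pass in limma. HBB and HBM were 2 of the 3 genes called in that fit (0.0257% of the genes tested), and the third was the mitochondrial gene ATP8. Without WT replicates 3 and 4 together, limma called AHSP as well (0.103% of all genes called, 0.0858% lower). In DESeq2 without WT replicate 4, a setting added after the data were seen, 5 of the 7 members were called lower, with 3.99% of all genes called and 2.3% called lower. These counts are a description of genes chosen with their values known. Leaving out WT replicate 1, 2 or 3 instead brought the HBB difference to -0.42, -0.14 or -0.14. The difference of ALAS2 was 0.25 without WT replicate 1, 0.64 without WT replicate 2 and -0.02 without WT replicate 3, and that of SLC4A1 was 0.55 without WT replicate 1. HBM was at -0.49 without WT replicate 3, and AHSP at -0.19 without WT replicate 2. Leaving out mutant replicate 4, the pig labelled KCNH3 mutation, gave -0.95 for HBB.

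**Figure D2:**
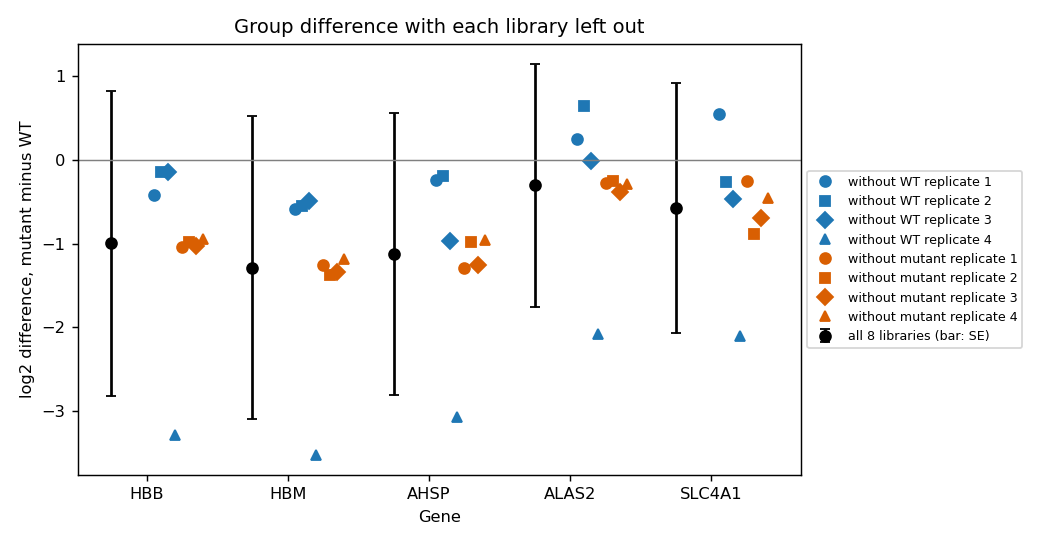
Difference in log2(normalized count + 1), mutant minus WT, for 5 genes with all 8 libraries (black, bar: SE) and with each library left out in turn (WT in blue, mutant in orange). Leaving out WT replicate 4 moves all 5 genes to between -2.07 and -3.53, while leaving out a mutant library moves HBB by little.

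Among WT libraries, with WT replicate 4 included, the spread of these genes was wide. Among mutant libraries it differed from gene to gene. The standard deviation of the log2 value of HBB was 4.59 in WT, which ranked 4 of 11660 genes, and 0.13 in mutant libraries, which ranked 10498. ALAS2 ranked 127 in WT with 3.64 and 9769 in mutant libraries with 0.16. The median over all genes was 0.70 in WT and 0.33 in mutant libraries. HBM, AHSP and SLC4A1 ranked 7, 41 and 285 in WT. In mutant libraries HBM was below that median (0.26, rank 7411), while AHSP (0.53, rank 2991) and SLC4A1 (0.83, rank 1127, on 12 to 40 reads) were above it. In WT replicates 1 to 3 alone, normalized counts were 501 ± 51.5 for HBM and 23505 ± 7015 for HBB (SD, n = 3). In those libraries AHSP was at 277 ± 174, ALAS2 at 1916 ± 1324 and SLC4A1 at 108 ± 123 (SD, n = 3).

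In normalized counts WT replicates 1 to 3 lay above every mutant library, and WT replicate 4 below every one, for HBB, HBM, AHSP and ALAS2. Over all genes tested 1.22% had this arrangement. Leaving WT replicate 4 aside, mutant libraries lay below all WT libraries for the same 4 genes, against 8.04% of all genes. With all 8 libraries no member had every mutant library below every WT library, against 5.22% of all genes. WT replicate 4 was the lowest of the 8 libraries for all 5 genes, against 20% of all genes.

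The 5 genes rose and fell together across the 8 libraries. Pearson's r between pairs of log2 values was 0.86 to 0.99 over the 10 pairs (median 0.95), and Spearman's rho was 0.62 to 0.93 (median 0.81). HBB and HBM had r = 0.99 and rho = 0.90, HBB and ALAS2 r = 0.97 and rho = 0.81, HBB and AHSP r = 0.95 and rho = 0.93, and HBB and SLC4A1 r = 0.86 and rho = 0.62. These points share libraries and size factors. They also fall into the 3 levels described above, none with as many as 6 libraries, so a relation within a level could not be tested and no p is given. Without WT replicate 4 the median r was 0.86, and that of HBB and SLC4A1 fell to 0.61. Without the 2 libraries farthest from the median of HBB, WT replicates 3 and 4, r was 0.98 for HBB and HBM, 0.98 for HBB and AHSP, 0.99 for HBB and ALAS2 and 0.72 for HBB and SLC4A1.

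Within the 4 mutant libraries r was spread widely. It ranged from -0.42 (AHSP and SLC4A1) to 0.96 (HBB and AHSP) with a median of 0.26, over values that for HBB span 2086 to 2542. HBB and HBM had r = 0.37 in the mutant libraries. Over the 4 WT libraries, which span the highest and lowest levels, the median r was 0.95. Spearman's rho had a median of only 0.4 in the WT libraries (0.2 to 1) and of 0 in the mutant libraries (-0.4 to 1).

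**Figure D3:**
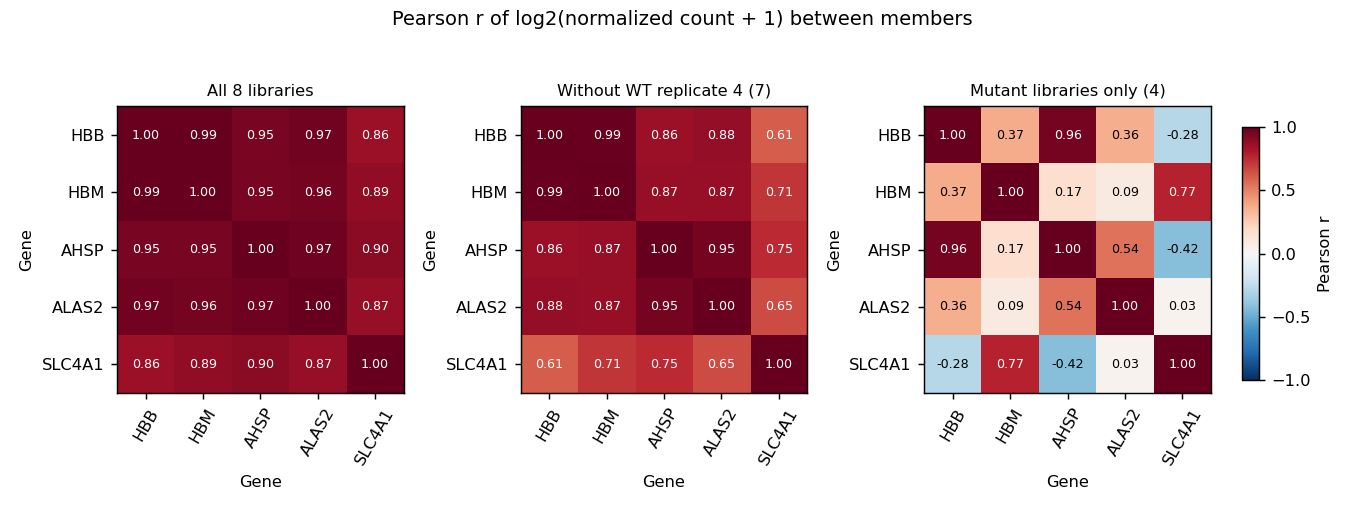
Pearson's r of log2(normalized count + 1) between 5 erythroid genes over all 8 libraries, over the 7 without WT replicate 4, and over the 4 mutant libraries. The pooled values are all at or above 0.86, and the values within mutant libraries run from -0.42 to 0.96.

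The genes most like HBB over the 8 libraries by Pearson's r were, outside the members, FBXL7, an F-box gene (r = 0.97), ATXN10 (r = 0.97), TXNDC12, a thioredoxin-like gene of the endoplasmic reticulum (r = 0.97), the RNA-binding protein gene HNRNPH2 (r = 0.97) and the small nucleolar RNA SNORD42 (r = 0.96). Among 11659 genes HBM ranked 1, ALAS2 4, AHSP 15 and SLC4A1 168 by their r with HBB, and 0.583% of the genes had r above 0.9. Likeness by r says nothing of size. FBXL7 spanned only 279 to 540 normalized counts, with WT replicate 4 lowest. The genes most like ALAS2 were FBXL7 (r = 0.99), the telomere protein gene TERF2IP (r = 0.98), ATXN10, OAF and TBC1D24 (r = 0.97 each). Without WT replicate 4 HBM ranked 3 by r with HBB (r = 0.99), ALAS2 220, AHSP 313 and SLC4A1 1729, while FBXL7 ranked 168.

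Although the genes moved together, their proportions were not the same in all libraries. HBM made up 1.75% to 2.88% of the summed HBM and HBB reads in WT replicates 1 to 3. The mutant pigs overlapped with them at 1.54% to 2.22%. ALAS2 made up 8.78%, 11.0% and 3.03% of the summed ALAS2 and HBB reads in WT replicates 1 to 3, while the mutant pigs had 12.7%, 13.5%, 15.6% and 15.4%. All mutant libraries held more ALAS2 relative to HBB than WT replicates 1 to 3, although these WT pigs differed more among themselves than from the nearest mutant library. In WT replicate 4 the share was 22.0% of 41 reads (12% to 36.7%), which overlaps the mutant values. AHSP ran from 0.28% in WT replicate 3 to 2.25% in WT replicate 1, with mutant libraries between at 0.84% to 1.42%. SLC4A1 was at 1.60% in WT replicate 1 but 0.16% and 0.11% in WT replicates 2 and 3, a spread among WT pigs wider than the range of 0.29% to 1.34% in mutant libraries.

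**Figure D4:**
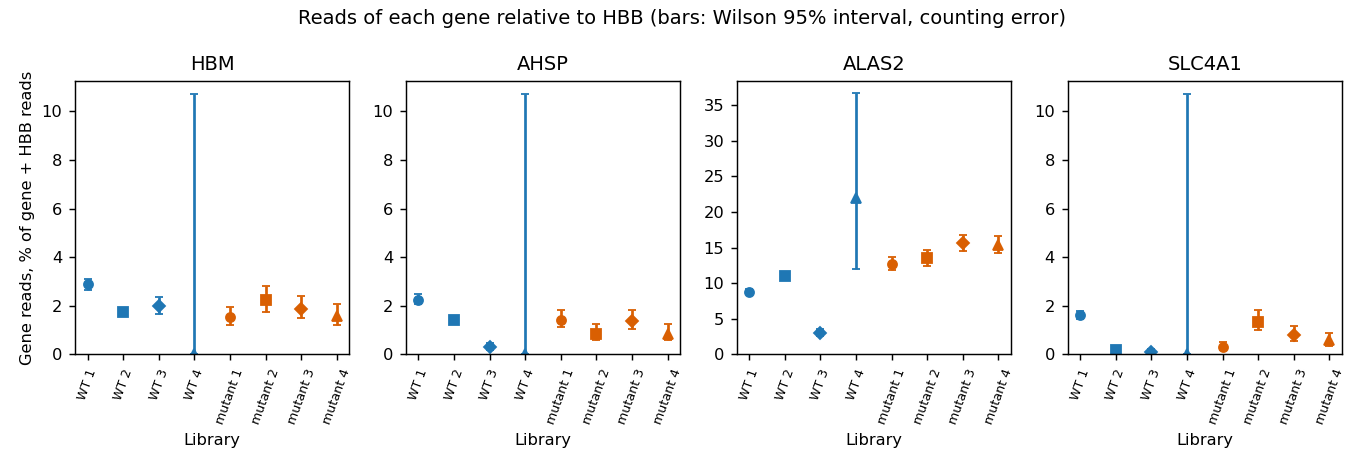
Reads of HBM, AHSP, ALAS2 and SLC4A1 as a percentage of that gene's and HBB's summed reads in each library (linear axes that differ between panels; bars: Wilson 95% intervals for counting error). ALAS2 is at 12.7% to 15.6% in mutant libraries and at 3.03% to 11.0% in WT replicates 1 to 3, and the wide bars belong to WT replicate 4, which has 32 HBB reads.

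Other globin genes of the list had few reads. HBQ1, an α-type globin gene separated from HBM by 3 annotated genes, reached 33.4, 51.0, 0 and 0 normalized counts in the WT pigs and 4.56 to 23.6 in the mutant pigs. Unlike HBM it was absent from WT replicate 3, where 1 read was worth 4.84 normalized counts. HBE1 and HBZ, embryonic globin genes named here after their values were seen, fell below the filter. HBE1 gave 9, 16, 17 and 6 reads in the WT pigs and 0, 0, 0 and 3 in the mutant pigs, and the authors' deposited table calls it lower (log2 fold change -5.70, adjusted p = 0.00697). Unlike HBB, it had more reads in WT replicate 4 than in any mutant library. HBZ had 55 and 11 reads in WT replicates 1 and 2, none in WT replicates 3 and 4 and 0 to 5 in mutant libraries. The α-globin genes HBA1 and HBA2 were on the list, but neither symbol was found in the table, so they were not analysed here.

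Of 90 other genes of erythroid biology on 9 lists, 76 were in the table and 64 passed the filter, 32 higher and 32 lower in mutant libraries. None passed limma. At an unadjusted p under 0.05 limma had 13 of the 64, a larger share than the 13.9% over all genes (1616 of 11660). These 13 went both ways and are named after their values were seen. Higher were ABCB6, ANK1, BPGM, CAT, CPOX, SPTB and TFRC, and lower were BNIP3L, FTL, GPX1, KEL, LDB1 and SOCS3. The lists were written with earlier results of these data known, so the share is a description. The median log2 difference of the 64 was 0.01, beside 0.12 over all genes, and without WT replicate 4 it was 0.02, beside 0.11. The authors' deposited table calls 1 of them higher and 4 lower among 74 with an adjusted p, where 1.32% of all genes are called higher and 3.23% lower. In the authors' deposited table these are SPTB (1.43), and HBE1, KEL (-4.17), SOCS3 (-3.40) and FTL (-1.46), with the log2 fold change in brackets. KEL, a blood group gene of the red cell membrane, had 21.5, 27.6, 82.4 and 93.4 normalized counts in the WT pigs. The mutant pigs had 8.55, 1.52, 2.15 and 0, from 0 to 14 reads, with no overlap between the groups. KEL was thus lower in mutant libraries, as HBB was in the group means. Only the place of WT replicate 4 was reversed, the highest library for KEL and the lowest for HBB.

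None of the measured heme synthesis genes used by all cells had the arrangement of libraries seen for ALAS2. All 11 measured members of that list had reads in every library, with 8 higher, 3 lower and a median log2 difference of 0.12, and with 7 higher, 4 lower and 0.22 without WT replicate 4. ALAS1, the housekeeping counterpart of ALAS2, was at 2446, 1869, 639 and 1405 normalized counts in the WT pigs and at 2162 to 2720 in the mutant pigs. FECH, which inserts iron into heme, averaged 827 ± 94.4 for WT and 918 ± 459 for mutant pigs (SD, n = 4). UROS and ALAD, of the middle steps of the pathway, differed by 0.33 ± 0.28 (SE) and -0.14 ± 0.35 (SE).

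Of the membrane and cytoskeleton list, 12 of 15 measured genes passed the filter, 7 higher and 5 lower in mutant libraries, with a median log2 difference of 0.49 that was 0.08 without WT replicate 4. The spectrin gene SPTB averaged 624 ± 291 normalized counts for WT and 1684 ± 411 for mutant pigs (SD, n = 4), opposite to HBB in direction. SPTB was at 312 in WT replicate 4, the library with the least HBB, against 446 to 2224 elsewhere. The part of other cells in the values of SPTB was not tested. The water channel gene AQP1, which endothelium also makes, had 785 to 8030 in WT and 5512 to 7567 in mutant libraries. The band 3 partner gene EPB42 was chosen after its values were seen. EPB42 was at 157, 40.6, 38.8 and 3.64 in the WT pigs and at 5.50 to 35.0 in the mutant pigs, the same arrangement as HBB, although its groups without WT replicate 4 are separated by only 35.0 against 38.8.

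The 4 most abundant genes of the erythroid transcription factor list were each highest in WT replicate 4, the library with the least HBB. LDB1 had 1834 normalized counts there against 630.4 to 1419 in the other libraries, and TAL1 had 601 against 43.2 to 116. GATA2 had 1030 against 70.8 to 417, and LMO2 had 719 against 123 to 397. WT replicate 4 also had the highest sum of endothelial markers (39665), and the part of other cell types in these values was not tested. Others on the list, named after their values were seen, were not raised there. BCL11A was lowest in WT replicate 4, at 8.49 against 76.4 to 136, and LYL1 (26.7) and NFE2 (20.6) were within the range of the other libraries. Of the 9 genes of that list that passed the filter, 3 were higher and 6 lower (median -0.26), and without WT replicate 4, 6 were higher and 3 lower (median 0.12). In the list of erythropoietin receptor signalling, 6 of 6 genes were lower (median -0.20), but without WT replicate 4, 4 were lower and 2 higher (median -0.23). SOCS3 was at 5388 in WT replicate 2 and at 111 to 1143 in the remaining WT pigs. The receptor gene EPOR had at most 20.7 normalized counts and was at 0 in WT replicates 3 and 4.

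None of the iron handling genes had the arrangement of HBB. TFRC, the transferrin receptor gene, was at 6662, 4455, 1085 and 391 normalized counts in the WT pigs and at 5760 to 11947 in the mutant pigs, a log2 difference of 2.20 ± 0.79 (SE) that was 1.45 without WT replicate 4. FTL, the ferritin light chain gene, was at 5284, 6625, 12315 and 18448 in the WT pigs and at 2598 to 5372 in the mutant pigs. Of the iron list 4 of 6 genes were higher, with a median of 1.08 (0.87 without WT replicate 4). Hemoglobin clearance genes had 1 of 5 higher and a median of -0.29 (-0.28 without it). Red cell enzyme genes had 4 of 9 higher and a median of -0.07, and 3 of 9 and -0.31 without WT replicate 4. Reticulocyte maturation genes had 4 of 7 higher and a median of 0.17 (0.04 without it). CD163, the macrophage receptor for hemoglobin bound to haptoglobin, had 1315 normalized counts in WT replicate 4 against 96.95 to 339 elsewhere among WT pigs and 157 to 1294 among mutant pigs.

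**Figure D5:**
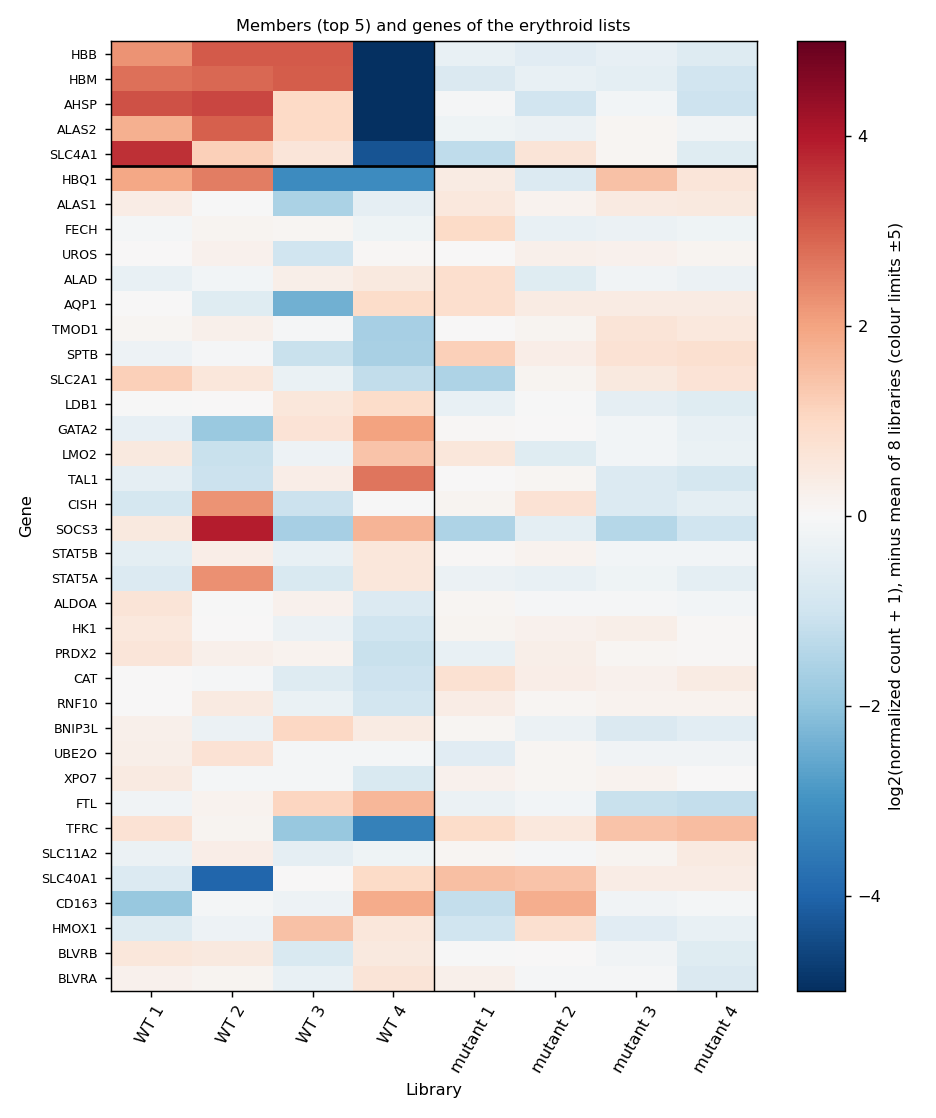
log2(normalized count + 1) minus its mean over the 8 libraries for 5 globin and erythroid genes (above the line) and up to 4 of the most abundant genes of each erythroid list (below it), with colours limited at ±5. The upper 5 genes are high in WT replicates 1 to 3 and lowest in WT replicate 4, and few of the lower genes share that order.

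Markers of other cells were set beside the globins. WT replicate 4, the library with the least HBB, had the highest summed normalized counts of the 8 libraries for endothelial (39665, against 8473 to 25802 elsewhere), macrophage (4795, against 791 to 4113), platelet (815, against 184 to 716), mast cell (284, against 0 to 243) and lymphocyte markers (127, against 48.5 to 67.8), and the lowest for ventricular myocyte markers (495220, against 603688 to 831035). These lists held 8 of 8, 8 of 8, 8 of 11, 5 of 8, 9 of 10 and 10 of 10 listed genes. The platelet chemokine gene PPBP was at 0 in WT replicate 3 and mutant replicate 1 and at most 13.5 elsewhere. Neutrophil markers, 7 of 10, summed to 2370 in WT replicate 2 and to 91.02 to 503 in the other libraries, and S100A8 was at 0 in WT replicate 3, where HBB was high. The sums rest on few genes. In WT replicate 4 the platelet sum was mostly the integrin genes ITGB3 (545) and ITGA2B (198). The other platelet markers went both ways. MPIG6B was highest in that library (36.4, against 0 to 34.2 elsewhere), and GP1BB was at 18.2 against 0 to 18.3. TUBB1, at 10.9, was the lowest of the 8 libraries, and GP9 and TREML1 were at 0 there and in WT replicate 3. Of its neutrophil sum of 249.9, MMP9 made up 126, with S100A8 at 7.28 and S100A12 at 24.3. Of the ventricular myocyte markers, ACTC1 was at 1752 in WT replicate 4 against 32209 to 234540 elsewhere. MYL3, MYBPC3, RYR2 and PLN were also lowest in that library, but TNNI3 was highest (139399). MYH7, MYL2, TNNT2 and ACTN2 lay within the range of the other libraries. The part of these markers, and of the mitochondrial share, in the globin levels was not tested.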

How the data were processed

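Groups were taken from the genotype labels. The deposited table gives 8 columns of signal, read counts that were scaled in each library, per the file headers and the values. The submitters' processing notes name DESeq2 and, for these pig samples, GRCh38. No source used here names the aligner, counter or annotation, and no coordinates are printed. The table also holds the authors' mean signal, log2 fold change, Wald score and p-value, per the file headers. Strand-specific counting is not stated, so overlapping or antisense genes could not be told apart.

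All values were whole multiples of 1 read's worth (100% within 1e-06 reads), so whole reads were recovered. Of 14720 rows, 2 name an annotation source (0.392% to 0.853% of reads) and were left out. Of 14718 genes, 14504 matched a pig symbol. Genes with at least 10 normalized counts in at least 4 libraries were kept (11660), and log2(value + 1) was fitted with limma 3.58.1 (trended, robust prior; R 4.3.3) with Benjamini-Hochberg adjustment over all kept genes at 0.05. Replicates are separate pigs by label, and p-values measure only the spread between these samples.

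Members and lists were chosen with earlier results of these data known. Named are the members, up to 4 genes of highest mean per list, called genes, and the 5 genes most like HBB and ALAS2 by Pearson's r. Shares have Wilson 95% intervals (statsmodels 0.14.6). Alternatives were DESeq2 1.42.0, edgeR 4.0.16, other scalings, pseudocounts, filters and priors, and leaving out libraries. DESeq2 without WT replicate 4 was added after the data were seen.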

Additional observations from a re-analysis of the deposited data

Results flagged for a closer look

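Within the WT group, WT replicate 4 was set far apart from the other 3 libraries in 2 of the 5 genes kept. On the log2 scale the gap from it to the next library made up 0.911 of the group's range for HBB and 0.968 for HBM, above Dixon's limit for 4 samples. Chance alone passes this limit in about 1 of 20 groups, and 10 groups were examined, 5 genes in each genotype. That rate is for separate groups not chosen on their values, so it cannot be applied here. The genes were selected on values from these same libraries. HBB and HBM also moved together over the 4 WT libraries (Pearson's r = 0.998). Both passes come from WT replicate 4 and do not count as separate events. The gaps are given as a description. The mutant libraries passed Dixon's limit for none of the 5 genes.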

How the results depend on the processing

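No paired analysis was possible because the labels number the pigs separately and the groups share no replicate number. The number of genes called, 0 with limma, was 3 with quantile normalization, 582 with DESeq2 and 12 without WT replicates 3 and 4 together. With 1 library left out it ranged from 0 to 3, the highest without WT replicate 4, and DESeq2 without that library called 510. The count of erythroid list genes called, 0 with limma, was 5 with DESeq2 and 7 with DESeq2 without WT replicate 4, where 4.56% and 3.99% of all genes were called. The log2 difference of HBB was -0.14 to -3.29 with 1 library left out, -3.15 without WT replicates 3 and 4 together and -3.33 with DESeq2 without WT replicate 4, and it passed the threshold in each fit without WT replicate 4. The difference of ALAS2 ranged from -2.07 to 0.64 and that of SLC4A1 from -2.11 to 0.55 with 1 library left out. Differences of HBB, HBM and AHSP stayed negative in all settings run. The median correlation of the members was 0.89 with quantile normalization, 0.91 with a pseudocount of 5 and 0.86 to 0.98 with 1 library left out. The mean of HBB reads was 1632 for WT and 239 for mutant pigs per 1 M nuclear reads, and 792 and 191 per 1 M reads of all genes. Beyond the libraries left out, the cause of these changes was not tested. GATA1 and KLF1 rest on few reads. Values of 0 in WT replicate 4, which held 7.53 M nuclear reads, have an upper limit of 3 reads, or 3.64 normalized counts. The cause of these values of 0 was not tested.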
